A study of Arabidopsis thaliana with 30 samples.

Results

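GH3.3 (AT2G23170) and WES1 (AT4G27260, also called GH3.5) are 2 genes of the GH3 family whose enzymes join auxin to amino acids. They were chosen by name, as the genes with probe sets mapped to GH3.3 and to WES1, and with earlier results of these data known. Their adjusted p-values and ranks therefore do not come from genes picked without knowledge of the data. Their signals were followed across 5 sorted root cell types at 2 pH values. GH3.3 and WES1 are 2 of 11 GH3 genes, and 2 of 13286 genes in all, that the probe annotation matched to a single-gene probe set. That annotation gives no gene for 8730 of 22746 probe sets, so these counts fall short of what the array measures. GH3.3 and WES1 were each matched to 1 probe set, and both were among the 9376 genes tested. GH3.3 lay above percentile 40 of its array on 22 of 30 arrays and WES1 on 29 of 30.

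GH3 enzymes link a plant hormone to an amino acid. Auxin bound to aspartate or glutamate is generally removed from the active pool, while some other amino acid conjugates can be split again to release it. Many GH3 genes are themselves switched on by auxin, and GH3.3 and WES1 are known as such early auxin genes. WES1 is also known to act on salicylic acid, and plants that overproduce it are dwarfed. In the root tip, auxin reaches a maximum around the quiescent center and the columella, and it sets growth, gravity response and lateral root formation.

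The study measured transcripts on 30 Affymetrix ATH1 arrays, with 3 arrays per cell type at pH 4.6 and 3 at pH 5.7. All plants were Arabidopsis thaliana of the Columbia ecotype that carried a GFP reporter. Pet111::GFP marked the columella root cap, pWER::GFP the epidermis with lateral root cap, pCOR315.1::GFP the cortex, pSCR::GFP the endodermis with quiescent center and pWOL::GFP the stele. Every group spent 5 days on medium of pH 5.7 buffered with MES and then 24 h on fresh medium with 3 mM DMG, set to pH 4.6 for the treatment or pH 5.7 for the control, so both groups were transferred and both met DMG. Roots of 6 days were turned into protoplasts and sorted by fluorescence, and the RNA was amplified in 2 cycles before hybridisation. No label ties the replicates to separate cultures or sorts, so the p-values reflect only how far these arrays differ from each other, and that spread may be technical.

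Arrays of a group correlated with r between 0.957 and 0.981 across probe sets, and no 2 arrays held identical values. Of 25 marker genes listed for the cell types, 9 were matched to a probe set, and none of these 9 was a columella marker. Of the 4 cortex markers, AT1G09750, AT1G62510 and AT3G21670 were brightest in cortex, and AT1G62500 was near the pseudocount everywhere and not brightest there (12.9 in cortex, 17.1 in endodermis, means of 6 arrays). GSO1, a receptor kinase of the endodermis, was brightest in endodermis, but cortex and stele arrays also held it. At pH 5.7 it was 6901 to 7232 in endodermis, 829 to 2698 in cortex and 1271 to 1814 in stele. Columella arrays had 37.4 to 45.6 and epidermis arrays 51.1 to 103 at that pH. EXPA7 and EXPA18, expansins of root hairs, were brightest in epidermis (means of 2197 and 1284), but stele arrays also held them (993 and 429), against 18.7 to 40.2 in the other 3 cell types. PHV, of the stele list, was brighter in columella (472 ± 80.8, SD, n = 6) than in stele (235 ± 109.5, n = 6). In a sorted population, fewer cells with a transcript and less of it per cell cannot be told apart. Signals below are MAS5 intensities on a linear scale, and a signal of one probe set cannot be set against that of another. Log2 changes were computed after adding a pseudocount of 11.9 to each signal, and adjusted p-values come from limma over 17038 probe sets with a threshold of 0.05.

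At standard pH, GH3.3 was mainly a signal of the inner root. It was brighter in cortex, endodermis and stele than in epidermis or columella, and the 3 inner cell types could not be ranked. On the 3 cortex arrays at pH 5.7 its signal was 114, 90.6 and 59.2 in replicates 1, 2 and 3. The endodermis arrays gave 89.6, 69.9 and 65.8, and the stele arrays gave 43.0, 57.7 and 155. These ranges overlapped, and stele replicate 3 stood above the other 8 inner arrays.

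In the outer cell types GH3.3 was near the pseudocount at pH 5.7. The columella arrays read 52.8, 9.26 and 18.6, and the epidermis arrays 23.9, 10.8 and 18.8. All 3 epidermis arrays and 2 of the 3 columella arrays lay under percentile 40 of their array. The cell types differed at pH 5.7 (limma F test, adjusted p = 0.000426), as did 82.7% of tested probe sets at this pH. Epidermis was lower than cortex by 3.33-fold, than endodermis by 2.96-fold and than stele by 2.94-fold (adjusted p between 0.00121 and 0.0042), in comparisons that 43.8%, 52.8% and 37.5% of probe sets passed. Columella was lower than cortex by 2.80-fold, than endodermis by 2.49-fold and than stele by 2.48-fold (adjusted p between 0.00335 and 0.00873, where 58.1%, 57.5% and 59.4% passed). Columella and epidermis were not separated from each other (log2 difference 0.25 ± 0.42, SE, adjusted p = 0.643). Among the inner cell types the largest difference was 0.18 ± 0.42 (cortex minus stele, adjusted p = 0.782), with group means of 88.0 ± 27.6 (SD, n = 3) in cortex, 85.1 ± 60.7 in stele and 75.1 ± 12.7 in endodermis.

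**Figure D1:**
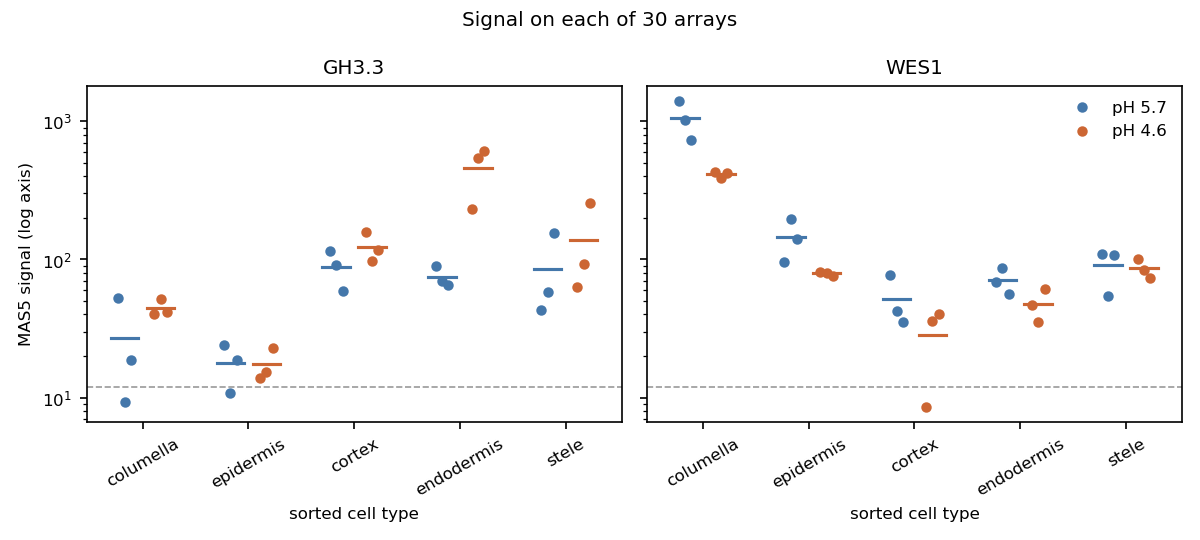
MAS5 signal (log axis) of GH3.3 (left) and WES1 (right) on each of the 30 arrays, by sorted cell type, with pH 5.7 in blue and pH 4.6 in orange. Bars are means of 3 arrays and the dashed line is the pseudocount of 11.9. The 3 endodermis arrays at pH 4.6 lie above all other GH3.3 values except 1 stele array that exceeds the lowest of them, and the columella arrays of both pH values lie above all others for WES1.

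After 24 h at pH 4.6, GH3.3 was highest in the endodermis and quiescent center. The 3 arrays at pH 4.6 read 231, 540.3 and 605.6 there, against 89.6, 69.9 and 65.8 at pH 5.7. No low pH value overlapped a control value, although replicate 1 was less than the other 2. The rise was 2.34 ± 0.42 on the log2 scale (SE, adjusted p = 0.000308), and it stood 20th among 17038 probe sets by size of rise in this cell type. In endodermis 16.6% of tested probe sets passed (9.60% as rises and 6.97% as falls), and 15.8% had 3 low pH values all above the 3 controls. The mean signal was 6.11 times that of the control. The interval of the rise ran from 2.78-fold to 9.18-fold.

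The 4 other cell types gave smaller differences for GH3.3, none of which passed the threshold. Cortex arrays read 158, 97.3 and 117 at pH 4.6, with 2 of the 3 above every control, and the log2 change was 0.46 ± 0.42 (adjusted p = 0.511, where 19.1% of probe sets passed, 11.6% higher and 7.51% lower). Stele arrays read 63.7, 92.7 and 256, and the log2 change was 0.58 ± 0.42 (adjusted p = 0.462, where 7.05% passed, 4.18% higher and 2.86% lower). The stele signals stood in the order of replicates 1, 2 and 3 at both pH values, with replicate 3 the highest. With replicate number as a block in limma the stele adjusted p was 0.432, from 1 correlation shared by all probe sets. The stele expansins summed to 548 to 933 at pH 4.6 and 1485 to 3303 at pH 5.7. Replicate 3 at pH 5.7 had the highest EXPA7 signal of the stele arrays and the lowest PHV signal, and the part of these in GH3.3 was not tested. Columella arrays read 40.01, 51.5 and 41.8, which is a narrow range beside the controls' 9.26 to 52.8. The columella change was 0.69 ± 0.42 (adjusted p = 0.276, where 20.5% passed, 9.95% higher and 10.6% lower), and control replicate 1 exceeded all 3 low pH arrays. Epidermis arrays read 13.9, 15.3 and 23.0, and the change of -0.01 ± 0.42 (adjusted p = 0.994, where 10.2% passed, 6.90% higher and 3.26% lower) had an interval from -0.87 to 0.85.

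Averaged over the 5 cell types, GH3.3 rose by 0.81 ± 0.19 (1.76-fold, 15 arrays per pH, adjusted p = 0.000902). This mean includes the endodermis rise of 2.34, and no other cell type passed by itself. In that contrast 42.1% of tested probe sets passed, 23.2% higher and 18.9% lower. The endodermis change exceeded the mean of the other 4 cell types by 1.91 ± 0.47 (adjusted p = 0.0449), the 3rd largest such excess among 17038 probe sets. In that test 0.992% of probe sets passed, 0.270% of all tested with an excess in endodermis. The call was narrow, with an adjusted p from 0.00437 to 0.153 over 39 alternative settings, of which 23 lost it. It was lost on leaving out any 1 of 21 arrays. The 9 arrays whose loss left it in place were replicate 2 at pH 5.7 of columella and of epidermis, cortex pH 4.6 replicate 1 and pH 5.7 replicate 3, endodermis pH 4.6 replicate 1, stele pH 4.6 replicate 3 and the 3 stele controls. The endodermis rise also exceeded the change in epidermis (epidermis minus endodermis -2.34 ± 0.60, adjusted p = 0.0426, where 1.28% passed). That call was lost under 19 of 39 alternatives, 16 of them single arrays left out, among which were every endodermis array but pH 4.6 replicate 1 and every epidermis array but pH 5.7 replicate 2. Against columella the difference (columella minus endodermis) was -1.64 ± 0.60 (adjusted p = 0.0851, where 8.57% passed). Cortex minus endodermis was -1.88 ± 0.60 (adjusted p = 0.210, where 0.528% passed) and endodermis minus stele 1.76 ± 0.60 (adjusted p = 0.183, where 0.710% passed). The columella difference passed under 4 of 39 alternatives, with the median signal as pseudocount (0.0111), with array weights (0.0161) and without columella pH 5.7 replicate 2 (0.045) or endodermis pH 4.6 replicate 1 (0.0322). Those 3 did not pass as fitted, so a rise of GH3.3 was called in endodermis without a test that sets endodermis apart from each other cell type.

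At pH 4.6 endodermis had the highest GH3.3 level. The cell types differed at pH 4.6 (limma F test, adjusted p = 3.59e-08, where 78.9% of probe sets passed). At this pH the group means were 459 ± 199.9 (SD, n = 3) in endodermis, 138 ± 104 in stele, 124 ± 30.7 in cortex, 44.4 ± 6.18 in columella and 17.4 ± 4.91 in epidermis. Endodermis differed from its neighbour in that order (endodermis minus stele 1.76 ± 0.42, adjusted p = 0.0021, where 25.7% passed) and from cortex (adjusted p = 0.00212, where 33.6% passed). Stele and cortex were not separated (0.06 ± 0.42, adjusted p = 0.935), columella was below cortex (adjusted p = 0.0133, where 53.4% passed), and columella and epidermis did not pass (0.95 ± 0.42, adjusted p = 0.0592). Set against the mean of the other 4 cell types, endodermis was 6.00-fold higher at pH 4.6 (adjusted p = 2.78e-07), where 37.2% of probe sets passed. At pH 5.7 the same comparison gave 0.68 ± 0.33 on the log2 scale and did not pass (adjusted p = 0.0985, where 45.0% passed), though it passed with array weights (0.0277) and without columella replicate 1 (0.0425) or stele replicate 3 (0.0383). The highest single cell type against the rest at pH 5.7 was cortex (0.89 ± 0.33, adjusted p = 0.0282, where 48.2% passed), a call lost without cortex replicate 1 (0.158) or replicate 2 (0.0925) and with the median signal as pseudocount (0.074).

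Other signals differed between the endodermis arrays. Replicate 1 at pH 4.6, which had the lowest GH3.3 signal of its group, also had the lowest GSO1 signal, 3008 against 5659 and 5973 in the other 2, and the lowest weight (0.272) when arrays were weighted by their fit. GSO1, the only endodermis marker measured of 5 listed, was 6901 to 7232 at pH 5.7, and its change of -0.59 in endodermis did not pass. The stele markers PHV and LHW summed to 256 to 615 at pH 4.6 and 288 to 362 at pH 5.7, the 4 cortex markers to 95.7 to 139 and 180.2 to 229.7, and the epidermis expansins to 24.2 to 42.6 and 16.9 to 163. The ratio of 3 prime to 5 prime signal in endodermis was lower at pH 4.6 for the GAPDH control (log2 difference -0.56, exact permutation p = 0.1, the smallest possible) and differed by -0.04 for a ubiquitin control (p = 0.8). Their part in the GH3.3 rise was not tested. Without replicate 1 the rise was 2.76 on the log2 scale, the largest value under any alternative, and without replicate 3 it stayed past the threshold. Over 40 alternatives it ranged from 1.89 to 2.76, with an adjusted p from 1.24e-05 to 0.00511.

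WES1 had a different distribution, with its highest level in the columella, the gravity-sensing cap at the root tip. On the columella arrays at pH 5.7 its signal was 1394, 1012 and 734. The next cell type was epidermis with 96.1, 196 and 141. No columella array came near the range of another cell type. Columella exceeded the mean of the other 4 cell types by 3.46 ± 0.25 on the log2 scale, or 11.0-fold (adjusted p = 5.58e-13), and 64.6% of probe sets passed that test at pH 5.7. The F test over the cell types had an adjusted p of 7.23e-12 at pH 5.7 and 6.94e-10 at pH 4.6.

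Below columella the WES1 levels formed a shallow gradient. Stele arrays at pH 5.7 read 110.3, 54.6 and 108.5, endodermis arrays 68.5, 87.4 and 56.3, and cortex arrays 77.5, 42.5 and 35.4. The ranges of these 3 overlapped one another, and no neighbours among epidermis, stele, endodermis and cortex were separated (adjusted p = 0.131, 0.586 and 0.310). Epidermis was nevertheless above endodermis (0.89 ± 0.31, adjusted p = 0.018) and above cortex (1.30 ± 0.31, adjusted p = 0.00104). At pH 4.6 columella again stood apart, 6.4-fold above the mean of the other 4 (adjusted p = 1.77e-10, where 60.2% passed). The remaining order was then stele with 86.1 ± 14.3 (SD, n = 3), epidermis with 79.2 ± 2.51, endodermis with 47.8 ± 12.8 and cortex with 28.3 ± 17.2. No adjacent pair of these passed (adjusted p = 0.844, 0.0952 and 0.105). Cortex was nevertheless below stele (cortex minus stele -1.39 ± 0.31, adjusted p = 0.000665, where 38.2% passed). Epidermis was above cortex (1.29 ± 0.31, adjusted p = 0.00143, where 36.9% passed), and endodermis and stele did not pass (adjusted p = 0.0882).

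Low pH lowered WES1 in the columella. The 3 low pH arrays read 426, 389.8 and 423, against 1394, 1012 and 734 at pH 5.7. The groups did not overlap, and the low pH arrays lay closer together than the controls. WES1 fell by 1.27 ± 0.31 on the log2 scale (2.41-fold lower, adjusted p = 0.00357), with an interval from -1.91 to -0.63. In columella 10.6% of tested probe sets were called lower, and 20.9% had 3 low pH values all under the controls. In the same columella arrays at pH 4.6 and at pH 5.7, the 4 cortex markers summed to 40.8 to 64.6 and 26.5 to 71.8, and GSO1 was 29.8 to 38.3 and 37.4 to 45.6. The epidermis expansins summed to 20.6 to 49.96 and 19.4 to 80.98, and the stele list to 800.2 to 825 and 549.8 to 730.2. The GAPDH control ratio of 3 prime to 5 prime signal was lower at pH 4.6 by a log2 difference of -0.61 (exact permutation p = 0.1), and the ubiquitin control differed by 0.04 (exact permutation p = 0.6). The part of these in the WES1 fall was not tested. Even after this fall every columella array remained above all arrays of the other cell types.

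In epidermis WES1 was also lower on each low pH array than on any control, but the difference did not pass. The low pH arrays read 81.0, 80.2 and 76.3, against 96.1, 196 and 141, and the log2 change was -0.73 ± 0.31 (adjusted p = 0.143). In that cell type 8.49% of probe sets had all 3 low pH values under the controls. Control replicate 2, the highest WES1 array of epidermis, also had the lowest EXPA7 and EXPA18 signals of the epidermis controls (1780 and 1029). Both expansins fell in epidermis at low pH, EXPA7 by 1.77 (adjusted p = 0.0124) and EXPA18 by 2.31 on the log2 scale (adjusted p = 0.00842), with sums of 1046 to 1559 against 2809 to 8895. The part of this shift in the WES1 difference, and in the epidermis changes of other genes given further on, was not tested.

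Cortex and endodermis gave WES1 differences of the same sign that did not pass, and stele gave almost none. Cortex arrays at pH 4.6 read 8.62, 36.1 and 40.2, and replicate 1 lay under the pseudocount. The cortex change was -0.72 ± 0.31 (adjusted p = 0.110). In cortex the 4 cortex markers summed to 2646 to 3886 at pH 4.6 and 6920 to 7905 at pH 5.7. Endodermis arrays read 47.2, 35.2 and 60.9 (change -0.48 ± 0.31, adjusted p = 0.324), and 2 of the 3 were under every control. Stele arrays read 101, 84.0 and 72.9 (change -0.03 ± 0.31, adjusted p = 0.974), within the range of the controls. Averaged over the 5 cell types, WES1 fell by 0.65 ± 0.14 (1.56-fold lower, adjusted p = 0.000437), in a contrast where 18.9% of probe sets were called lower.

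A test for a different WES1 response between cell types did not pass (limma interaction, adjusted p = 0.287, where 12.5% of probe sets passed). Columella against the mean of the other 4 gave -0.78 ± 0.35 (adjusted p = 0.146, where 12.7% passed), and columella minus stele gave -1.24 ± 0.44 (adjusted p = 0.0872, where 7.28% passed). The fall of WES1 was therefore called in columella and on average, without a test that sets columella apart. With a larger pseudocount, the median signal of 55.3, those 3 tests passed (adjusted p = 0.041, 0.00856 and 0.00955). For GH3.3 the interaction passed narrowly (adjusted p = 0.0498) and was lost under 25 of 39 alternatives, where it reached up to 0.146. It held on leaving out columella pH 5.7 replicates 1 or 2, epidermis pH 5.7 replicate 2, cortex pH 5.7 replicate 3, endodermis pH 4.6 replicate 1, or replicates 1 or 3 of stele at either pH, and not for the other 21 arrays.

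**Figure D2:**
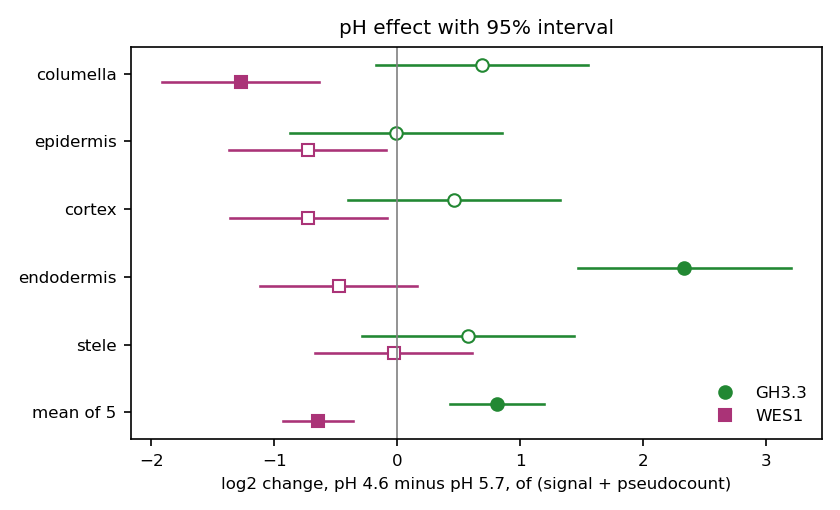
Log2 change (pH 4.6 minus pH 5.7) of signal plus pseudocount for GH3.3 (green circles) and WES1 (purple squares) in each cell type and in the mean of the 5, from the limma fit. Lines are 95% intervals and filled symbols have an adjusted p under 0.05. GH3.3 is filled in endodermis (2.34) and the mean (0.81), and WES1 in columella (-1.27) and the mean (-0.65).

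The responses of the 2 genes were compared array by array, as the log2 value of GH3.3 minus that of WES1 on the same array. GH3.3 moved up relative to WES1 by 2.81 ± 0.48 (SE, n = 3 against 3) in endodermis and by 1.96 ± 0.38 in columella, and in both the arrays of the 2 pH values did not overlap. Cortex gave 1.18 ± 0.61, also without overlap, with a range from 0.58 to 1.54 over 10 alternatives. WES1 on cortex pH 4.6 replicate 1 (8.62) lay under the pseudocount. How often such differences between 2 probe sets do not overlap was not counted. Single probe sets did not overlap between pH values in 30.7% of cases in endodermis, 41.1% in columella and 37.0% in cortex. The exact permutation p was 0.1 for these 3 cell types, which is the smallest that 3 against 3 arrays allow, so none could pass 0.05. Epidermis gave 0.72 ± 0.49 (exact permutation p = 0.3) and stele 0.61 ± 0.82 (exact permutation p = 0.5), with overlapping arrays. In columella the larger of the 2 changes was that of WES1, and in endodermis that of GH3.3. Across the 10 group means the log2 values of both genes had a Pearson r of -0.57, which is a description of groups that share cell types.

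The other tested GH3 genes did not share 1 response. Of 19 listed GH3 genes, 11 were matched to a probe set and 9 were tested, GH3.3 and WES1 included. GH3.9 and AT1G48660 did not pass the filter on low signals. The other 8 genes were matched to no probe set and were not analysed here. The probe annotation names no gene for 8730 of 22746 probe sets, so the array may still hold them. Of the 4 tested genes that conjugate auxin, GH3.3 and GH3.17 rose in endodermis, WES1 fell in columella and GH3.1 fell in epidermis. Over all tested probe sets 9.60% rose in endodermis, 10.6% fell in columella and 3.26% fell in epidermis. The list's median change was 0.26 in endodermis against -0.00 over all tested, -0.03 in columella against -0.02 and -0.58 in epidermis against 0.05. Of the 5 tested GH3 loci without a symbol, 1 fell in columella and 1 in epidermis, both times AT5G51470, and 2 fell in the mean of the cell types, where 10.6%, 3.26% and 18.9% of all tested probe sets fell. Their median change was -0.25 in columella against -0.02 over all tested, and -0.89 in epidermis against 0.05.

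GH3.17, which conjugates auxin mainly to glutamate, was the other GH3 gene that rose in endodermis. Its endodermis signals at pH 4.6 were 198, 477 and 439, against 119, 182 and 216 at pH 5.7. Replicate 1 at low pH overlapped the controls and was again the lowest of its group. The log2 change was 1.00 ± 0.29 (adjusted p = 0.0158). The call was lost without endodermis pH 4.6 replicate 2 (0.0861) or 3 (0.071), without pH 5.7 replicate 1 (0.103) and in a fit to the 6 endodermis arrays alone (0.110). Its level in endodermis was nonetheless its lowest of all, with a mean of 172 ± 49.3 (SD, n = 3) at pH 5.7 against 8369.5 ± 2338 in columella. The interaction for GH3.17 had an adjusted p of 0.0432, lost under 19 of 39 alternatives, 16 of them single arrays left out, among which were endodermis pH 4.6 replicates 2 and 3 and pH 5.7 replicates 1 and 2.

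GH3.1, an auxin-induced member, had no overlap between pH values in epidermis. Its signals there were 164, 152 and 203 at pH 4.6 and 204, 511 and 369 at pH 5.7. The low pH and control values met closely, at 203 and 204, and the highest control was replicate 2, the array with the lowest expansin signals of the epidermis controls. GH3.1 fell by 0.93 ± 0.30 on the log2 scale (adjusted p = 0.0447), on arrays where both expansins fell too, and 3.26% of probe sets were called lower in epidermis. The call was lost on leaving out any epidermis array but pH 5.7 replicate 1, any columella array, cortex pH 4.6 replicate 3 or cortex pH 5.7 replicate 2, and it reached an adjusted p of 0.283 over the alternatives. In columella GH3.1 read 307, 253 and 344 against 197, 220.2 and 236 without overlap (20.2% of probe sets were higher without overlap there), and the difference of 0.44 ± 0.30 did not pass (adjusted p = 0.338).

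AT5G51470, a GH3 family locus without a symbol, had the largest change among the GH3 genes. Its columella signals were 565, 881 and 1049 at pH 4.6, against 4376, 4864 and 5428 at pH 5.7. The groups were far apart. It fell by 2.58 ± 0.25 (5.97-fold lower, adjusted p = 8.43e-09). In epidermis, beside the fall of the expansins, it read 182, 191 and 217 against 347, 587 and 408, and fell by 1.11 ± 0.25 (adjusted p = 0.00449), a call lost with a pseudocount of 1 (0.177). In cortex, endodermis and stele its group means were between 1.53 and 9.90, all under the pseudocount. Its response differed between cell types (interaction, adjusted p = 5.67e-05), a call lost with a pseudocount of 1 (0.156). At such low signals a fall in those inner cell types could hardly show, so this test cannot tell how they responded.

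AT1G23160, another GH3 family locus without a symbol, had the same division between outer and inner cell types. Its columella arrays at pH 4.6 read 465, 479 and 362, against 1140, 814 and 698 at pH 5.7. The groups did not overlap, yet the change of -0.98 ± 0.37 did not pass (adjusted p = 0.0612). On average over the cell types it fell by 0.52 ± 0.17 (adjusted p = 0.0123), and this was lost with a pseudocount of 1 (0.162). AT5G13350, AT5G13380 and AT1G48670 had no called change in any cell type, with log2 changes between -0.96 and 0.74.

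**Figure D3:**
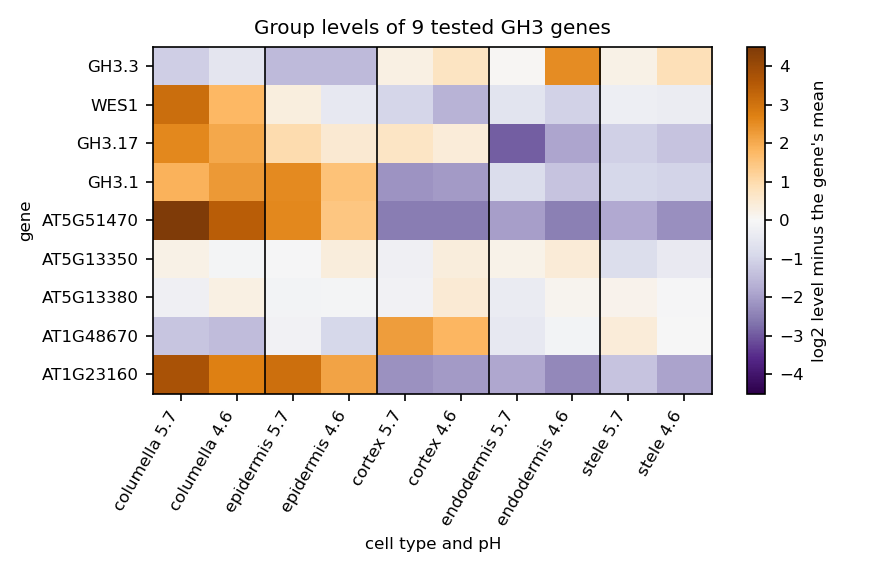
Level of the 9 tested GH3 genes in the 10 groups (colour, orange above and purple below the gene's own mean). Each level is log2 of the mean signal of 3 arrays plus the pseudocount, minus that gene's mean over the 10 group values. Columella at pH 5.7 is the highest group for WES1, GH3.17, AT5G51470 and AT1G23160, and GH3.3 has its highest group in endodermis at pH 4.6.

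Of the 9 tested GH3 genes, 4 had their highest group in columella (WES1, GH3.17, AT5G51470 and AT1G23160) and 1, GH3.1, in epidermis. The share of all probe sets with their highest group in columella was not counted. By a different measure, 37.7% of tested probe sets were called higher in columella than in the mean of the other 4 at pH 5.7. Cortex held the highest group of 2 genes (AT5G13380 and AT1G48670) and endodermis that of 2 (GH3.3 and AT5G13350). AT5G13380 and AT5G13350 were low in every cell type, with means of 18.1 to 25.3 and 7.0 to 23.6 beside the pseudocount of 11.9. Their highest group is therefore uncertain. Over the 10 group means, AT5G51470 (r = 0.91), AT1G23160 (0.81) and GH3.1 (0.76) followed WES1. The same 3 ran opposite to GH3.3 (-0.75, -0.82 and -0.79). In cortex, endodermis and stele AT5G51470 and AT1G23160 had means of 1.53 to 10.4, under the pseudocount, and GH3.1 of 2.65 to 20.2. The coefficients of these 3 genes thus rest largely on outer against inner cell types. GH3.17 gave 0.65 with WES1 and -0.62 with GH3.3, and AT1G48670 gave -0.69 and 0.42. AT5G13350 and AT5G13380 lay between -0.20 and 0.37 with either. These coefficients describe 10 groups that share cell types and carry no test.

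Among genes of other steps in auxin biology, 14 of 140 entries in 8 lists were tested, in 4 of the lists. The lists of auxin transport, auxin receptors with ARF factors, salicylate and camalexin were not analysed here. Of 3 tested genes of conjugate hydrolysis, oxidation and glycosylation, 1 rose in columella and 2 rose in epidermis, with median changes of -0.03 and 0.65 against -0.02 and 0.05 over all tested, of which 9.95% rose in columella and 6.90% in epidermis. IAGLU, a glucosyltransferase named for its action on auxin, was the gene that rose in both. Its columella signals were 3612, 3486 and 3158 at pH 4.6 and 1185, 1335 and 1194 at pH 5.7. The groups were far apart, opposite in direction to WES1 in the same arrays, and IAGLU rose by 1.46 ± 0.16 (adjusted p = 1.13e-07). In epidermis it read 665, 977 and 817 against 381, 412 and 426, and rose by 0.98 ± 0.16 (adjusted p = 0.00022), again without overlap, as for 14.9% of probe sets there. Its changes in cortex, endodermis and stele were 0.005, 0.24 and 0.15 and did not pass, and the response differed between cell types (adjusted p = 0.00013). UGT74D1, which glucosylates an oxidised form of auxin, rose in epidermis from 570.1 ± 42.7 to 923 ± 269 (log2 change 0.65 ± 0.19, adjusted p = 0.0248). This call was lost on leaving out epidermis replicate 2 at pH 4.6 or replicates 1 or 3 at pH 5.7, with equal array medians and in the fit to 6 arrays, and reached an adjusted p of 0.223.

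Aux/IAA proteins repress auxin response genes and many are degraded when auxin is sensed. Of 7 tested Aux/IAA genes, 2 rose in columella, 1 in epidermis and 2 in the mean, and none fell, where 9.95%, 6.90% and 23.2% of all tested probe sets rose. Their median was 0.32 in columella against -0.02 over all tested and -0.03 in epidermis against 0.05. IAA30, an Aux/IAA without the usual degron, had columella signals of 133, 116 and 106 at pH 4.6 against 41.1, 50.8 and 35.5 at pH 5.7. All low pH arrays were above the controls, and it rose by 1.27 ± 0.33 (adjusted p = 0.00565). IAA18 rose in columella from 89.7 ± 9.43 to 178 ± 15.2 (0.90 ± 0.28, adjusted p = 0.019) and in epidermis from 63.7 ± 17.5 to 146 ± 43.1 (1.05 ± 0.28, adjusted p = 0.0133). The columella call was lost on leaving out replicate 3 at pH 4.6 or replicates 1 or 3 at pH 5.7 (up to 0.0691), and the epidermis call without pH 4.6 replicate 1 or pH 5.7 replicate 2 or in the fit to 6 arrays (up to 0.0821). In the mean of the cell types IAA18 rose by 0.67 ± 0.12 (adjusted p = 6.45e-05), and IAA34 by 0.36 ± 0.15 (adjusted p = 0.0456), a call lost under 25 of 38 alternatives, 21 of them single arrays left out.

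HAT2, an auxin-induced homeodomain gene, fell in the cell types between cap and stele. In cortex it read 526, 827 and 906 at pH 4.6 against 1539, 1732 and 1967 at pH 5.7. It fell there by 1.23 ± 0.29 (adjusted p = 0.00314), as 7.51% of probe sets did. On the same cortex arrays GSO1 fell by 1.87 (adjusted p = 8.01e-05) and the cortex marker AT1G09750 by 1.52 (adjusted p = 0.00368). In cortex the 3 prime to 5 prime ratio differed at pH 4.6 by -1.01 on the log2 scale for GAPDH and by -0.64 for ubiquitin (exact permutation p = 0.1 for each), and the part of these in the HAT2 fall was not tested. In endodermis it read 337, 209 and 351 against 659, 749 and 499.9, and fell by 1.08 ± 0.29 (adjusted p = 0.0119), on the same arrays on which GH3.3 rose. The groups did not overlap in either cell type, as for 15.7% of probe sets lower in cortex and 14.9% lower in endodermis, and the endodermis call was lost without pH 4.6 replicate 2 or pH 5.7 replicate 2 (up to 0.0699). In epidermis, where both expansins also fell, it fell by 0.94 ± 0.29 (adjusted p = 0.039), a call lost on leaving out any epidermis array but replicate 1 at pH 5.7, with no filter and in the fit to 6 arrays (up to 0.246). Its changes were 0.16 in columella and 0.24 in stele and did not pass, the mean change was -0.57 ± 0.13 (adjusted p = 0.000874), and the response differed between cell types (adjusted p = 0.0189). LBD16 and PUCHI, lateral root regulators on the same list of 3 tested early auxin genes, and YUC2, the only tested auxin synthesis gene, had no called change.

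**Figure D4:**
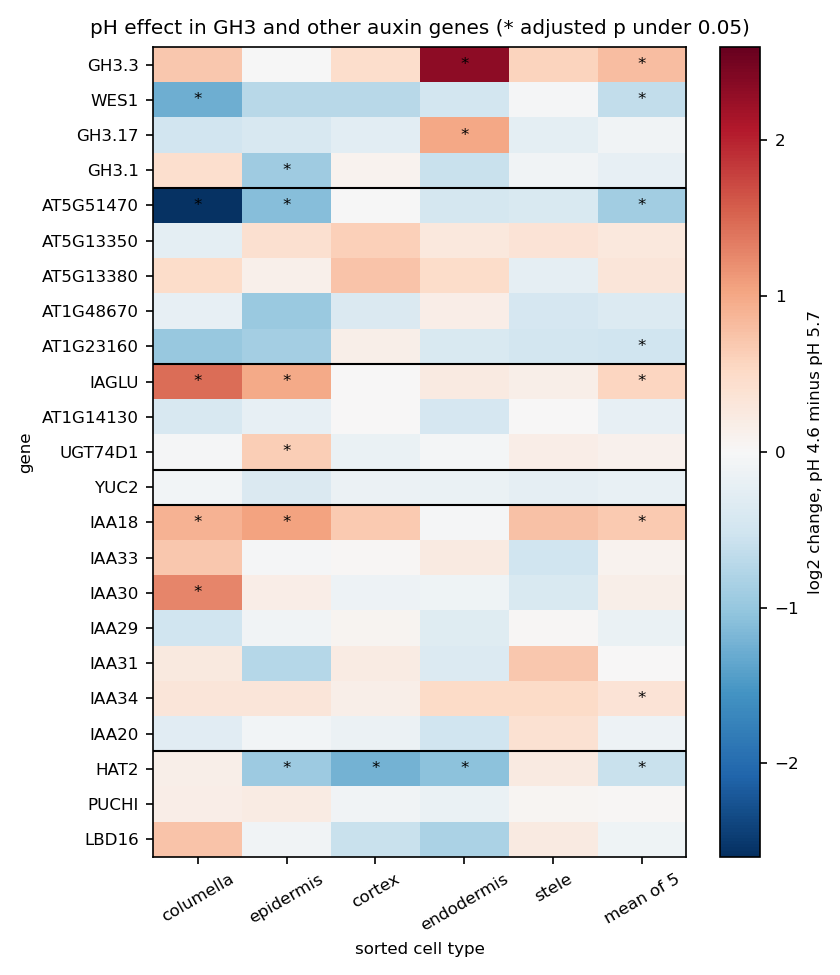
Log2 change (pH 4.6 minus pH 5.7, colour) of the 23 tested GH3 and other auxin genes in each cell type and in the mean of the 5, with an asterisk where the limma adjusted p is under 0.05. Lines separate the lists in the order auxin conjugating GH3, other GH3, conjugate turnover, synthesis, Aux/IAA and early auxin genes, and the darkest cells are AT5G51470 in columella (-2.58) and GH3.3 in endodermis (2.34).

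The genes whose levels ran most like GH3.3 over the 10 group means all had their highest group in endodermis at pH 4.6. They were TRM19 (r = 0.96), AT1G11330 (0.93), AT5G25080 (0.93), UGT76E11 (0.91) and AT5G09510 (0.91), and all but AT1G11330 had their lowest group in epidermis at pH 5.7. TRM19, AT1G11330 and UGT76E11 rose in endodermis, by 1.32, 2.21 and 1.54 on the log2 scale (adjusted p = 0.000309, 1.64e-05 and 0.0019), while AT5G25080 (0.39) and AT5G09510 (0.70) did not pass. Over the 30 single arrays TRM19 and AT1G11330 remained among the 5 most like GH3.3, and the others did not. For WES1 the nearest genes were AT5G50890 (r = 0.99), AT5G58740 (0.98), AT1G53400 (0.98), AT5G65290 (0.98) and AT2G38820 (0.98). Each had its highest group in columella at pH 5.7 and its lowest in cortex at pH 4.6, as WES1 did, and 3 of the 5 remained over the 30 arrays. AT1G53400 fell in columella by 1.20 (adjusted p = 2.48e-06) and AT5G50890 by 0.92 (adjusted p = 0.0265). AT5G58740 (-0.33), AT5G65290 (-0.46) and AT2G38820 (-0.08) did not pass there. These likenesses were read from groups of 5 cell types at 2 pH values and carry no test. The genes were picked by likeness over these same groups. A shared highest group and a shared pH change therefore follow in part from the choice and are no separate evidence. Over all tested probe sets 9.60% rose in endodermis and 10.6% fell in columella.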

How the data were processed

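The authors deposited linear MAS5 intensity values per probe set, per the submitters' processing notes. Each array had a trimmed mean of 250.0 (2% cut from each end), and array medians were 43.8 to 71.7. No genome build is named, so no coordinates are given. The members and gene lists were chosen with earlier results of these data known. Control probe sets (64 of 22810) were removed. The pseudocount was percentile 25 of all values, and those exceeding their array's percentile 40 on 3 or more arrays (17038) were tested. Of the 22746 others, 13513 had a single gene, 503 several and 8730 none, and 13436 matched TAIR10.1, used for names alone. A mean per group was fitted to the 30 arrays with limma 3.58.1 in R 4.3.3 (eBayes with trend), with Benjamini-Hochberg adjustment. The fit was tested on simulated data. Folds are 2 to the power of log2(signal + pseudocount) changes and understate changes of low signals. The number of arrays limits precision. Array similarity, percentiles and exact tests used python 3.11.15, numpy 2.4.6, pandas 2.3.3 and scipy 1.17.1.

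The rule for named genes took GH3.3 and WES1, every tested GH3 gene, up to 3 called members of each other list, the 5 genes most like each member by Pearson r over group means, and the markers. Alternatives were pseudocounts of 1 and 55.3, quantile normalization, equal array medians, no filter, a filter at percentile 60, a replicate block, robust moderation, array weights, a separate fit for each cell type's 6 arrays and leaving out each array. Same-numbered arrays of both pH values deviated together with r over 0.1 in 6 of 15 pairs (-0.135 to 0.211). The 3 epidermis pairs were among these 6 (0.121 to 0.181). The labels do not say that the numbers pair samples, so they were not taken to pair them.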

Additional observations from a re-analysis of the deposited data

Results flagged for a closer look

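Of 9 tested GH3 and 14 other tested auxin genes, 5 had a low pH response that differed between cell types by the interaction test. Of all tested probe sets 12.5% passed the same test. The GH3.3 interaction had an adjusted p of 0.0498, its endodermis change exceeded the mean of the other 4 cell types with an adjusted p of 0.0449, and it exceeded the epidermis change with an adjusted p of 0.0426. The GH3.17 interaction was similarly close to the threshold (0.0432). These 4 calls were each lost under 19 to 25 of 39 alternatives. The interactions of AT5G51470 (5.67e-05), IAGLU (0.00013) and HAT2 (0.0189) were further from it. Group means of AT5G51470 in cortex, endodermis and stele were under the pseudocount. A fall there could hardly show, so its interaction cannot tell how those cell types responded. IAGLU and HAT2 passed under every one of 39 alternatives, and AT5G51470 under all but the pseudocount of 1. The cause of these differences was not tested.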

How the results depend on the processing

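The rise of GH3.3 in endodermis and the fall of WES1 in columella kept their direction and passed the threshold under all 40 alternatives (WES1 from -1.50 to -1.04, adjusted p from 6.71e-05 to 0.0355), as did both mean responses and all cell type F tests under 39. The GH3.3 interaction did not pass with a pseudocount of 1 (0.141), quantile normalization (0.0621), no filter (0.0742) or robust moderation (0.0546), and ranged from 0.014 to 0.146 on leaving out 1 array. The WES1 interaction passed with the median as pseudocount (0.041). Changes near 0 turned sign: GH3.3 in epidermis with a pseudocount of 1 (0.002) and from -0.19 to 0.14 on leaving out 1 array, WES1 in stele with array weights (0.192) and from -0.32 to 0.12, and the stele response difference from -0.022 to 1.10 (lowest without stele pH 4.6 replicate 3). The causes were not tested. Replicate number as a block left every call on these genes in place (GH3.3 in endodermis 2.34, adjusted p = 0.000194, WES1 in columella -1.27, 0.003). Its correlation, 1 value shared by all probe sets, was 0.046.

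Probe sets called in epidermis (1731) came to 460 in the 6-array fit (fewer arrays), 3331 with array weights and 781 to 2658 without 1 array. Cortex gave 3250 or 5751 with array weights. Endodermis gave 2822, 1268 in the 6-array fit and 1582 without pH 4.6 replicate 1. Stele gave 1201, 631 in the 6-array fit and 389 to 1452. Signals near the pseudocount, such as GH3.3 in epidermis and columella, limit what a change there can show.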
